A study of Rattus norvegicus with 12 samples.

Results

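The transcripts of the endothelin and angiotensin systems were followed in neonatal rat ventricular myocytes (NRVMs) through hypertrophic stimulation and loss of the zinc transporter Slc39a2. The set was given by name as 9 genes (Edn1, Edn3, Ednra, Ednrb, Ece1, Agt, Agtr1a, Agtr2 and Ace) among the 18483 genes of the expression tables. Of these, 8 had a row, and Edn3 was not analysed here. Counts were high enough to test 6 of them, and Agt and Agtr2 were at or near 0 in every sample.

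The cells were cardiomyocytes of Sprague-Dawley neonates in a medium with insulin, transferrin and selenium. All 12 cultures were transfected with an siRNA, either the negative control (siNeg) or a single sequence against Slc39a2 (siSlc39a2), so a second sequence was not compared. Phenylephrine (PE), an agonist of the alpha-1 adrenergic receptor that makes cardiomyocytes grow, was added at 12 h after transfection for 36 h in the siNeg PE and siSlc39a2 PE groups, and the siNeg and siSlc39a2 groups were left untreated. These times are those of the sample labels, and the culture methods of the study give a longer exposure to PE. Each of the 4 groups held 3 samples, which the submitters described as independent biological replicates.

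Endothelin is made as a long precursor that endothelin converting enzyme (Ece1) trims to the active peptide. It acts on the receptors ETA (Ednra), which couples to Gq and drives contraction and growth, and ETB (Ednrb), which in endothelium releases nitric oxide and also clears the peptide. The angiotensin system starts from angiotensinogen (Agt), from which angiotensin II is cut in steps, the last of them by angiotensin converting enzyme (Ace). Angiotensin II is the ligand of the receptors AT1 (Agtr1a in rodents, beside Agtr1b) and AT2 (Agtr2). Both peptides are known hypertrophic agonists of cultured cardiomyocytes, acting through the same class of Gq-coupled receptor as PE.

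The start regions of Edn1 and Ednrb are shown because these were the endothelin genes with the largest fold changes, and they moved in opposite directions after knockdown. The sequences are from RefSeq on the assembly GRCr8 and run from 250 bases before to 50 bases after the annotated start, 5′ to 3′ along the gene. The Edn1 region is chr17:22666638-22666937 and the Ednrb region is chr15:87086716-87087015, both on the minus strand. Capitals mark matches to the motifs searched.
Edn1: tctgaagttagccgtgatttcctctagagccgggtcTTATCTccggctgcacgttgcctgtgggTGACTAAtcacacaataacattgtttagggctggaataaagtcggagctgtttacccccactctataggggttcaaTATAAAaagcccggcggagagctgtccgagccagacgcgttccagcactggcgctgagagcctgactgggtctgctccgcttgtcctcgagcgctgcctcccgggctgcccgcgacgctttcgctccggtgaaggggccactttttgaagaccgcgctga
Ednrb: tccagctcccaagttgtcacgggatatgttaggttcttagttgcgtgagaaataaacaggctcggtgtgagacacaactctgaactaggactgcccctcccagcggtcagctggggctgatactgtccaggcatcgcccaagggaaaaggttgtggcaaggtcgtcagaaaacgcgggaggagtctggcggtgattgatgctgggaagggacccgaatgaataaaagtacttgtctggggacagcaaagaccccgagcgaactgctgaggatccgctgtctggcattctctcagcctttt
The motifs were searched on both strands, and none of the matches overlapped another. They were the AP-1 consensus TGANTCA, the AP-1 variant TGACTAA, the GATA motif AGATAA, the core of the interferon-stimulated response element and the TATA box TATAAA. In the Edn1 region the GATA motif was matched on the other strand, with its first printed base 214 bases before the start. The AP-1 variant lay 186 bases and the TATA box 110 bases before the start. Among 33469 promoters of this length, 11.6% held the GATA motif, 2.34% the AP-1 variant and 14.2% the TATA box. The AP-1 consensus (7.33% of promoters) and the response element core (3.92%) were not matched in the Edn1 region, and the Ednrb region held none of the 5 motifs. Of the 9 genes, 7 had a start region in the RefSeq table used. The other motif matches were a TATA box in Agtr1a, 45 bases before the start, and one in Ace on the other strand, 42 bases before it. Binding of any factor to these regions was not measured.

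The samples held between 24065539 and 28603854 expected counts each. Levels are given as CPM, counts scaled to a fixed normalized library size, which compare samples but not genes, and as FPKM, which are also scaled to transcript length. Slc39a2 was at 2.06 ± 0.229 CPM (SD, n = 3) in siNeg and 0.392 ± 0.324 in siSlc39a2, and at 5.71 ± 1.92 in siNeg PE and 1.13 ± 0.26 in siSlc39a2 PE. The natriuretic peptide transcripts Nppa and Nppb, which mark hypertrophy, rose with PE by log2 fold changes of 4.63 and 5.19 in siNeg cultures. Cardiomyocyte markers were present in every group, with 7 of 7 having counts and a summed level between 28415 and 41874 CPM. The mean sum was 37697 CPM in siNeg and 28777 in siSlc39a2 without PE, and 37397 and 39697 with PE. The siSlc39a2 samples lay below those of every other group. Against siNeg this gap was mostly Myh6, at a mean of 15858 CPM in siNeg and 7407 in siSlc39a2. Without PE the knockdown called 2 of the 7 markers lower (Myh6 and Tnni3) and 0 higher. The other 5 were not called, and the list's median was -0.12 on the log2 scale. The cultures also held other cells, and in bulk RNA fewer cells of a type and less RNA per cell cannot be told apart. Summed fibroblast markers (8 of 8 with counts) were between 13859 and 18345 CPM in siNeg and 5338 and 5643 in siSlc39a2 without PE, and with PE between 9171 and 11754 and between 3582 and 4949. This sum is mostly collagen, with Col1a1 alone at 10756 CPM of a mean sum of 16627 in siNeg. Summed endothelial markers (8 of 8 with a row, 7 tested) were between 17.3 and 27.3 CPM over all samples.

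A gene was called higher or lower at an adjusted p below 0.05, from edgeR's quasi-likelihood test with Benjamini-Hochberg adjustment over 13967 genes. PE treatment of siNeg cultures changed 3 of the 6 genes tested, with Ednrb higher and Edn1 and Agtr1a lower. The same test called 49.7% of all genes tested, 24% higher and 25.7% lower. Slc39a2 knockdown without PE changed 6 of 6, with Edn1 and Ednra higher and Ednrb, Ece1, Agtr1a and Ace lower, where 49.2% of all genes were called (22.8% higher, 26.4% lower). The knockdown under PE called the same 6 genes in those directions, where 57.3% of all genes were called (29.2% higher, 28.1% lower). PE after knockdown also changed 6 of 6, with Ednrb higher and the other 5 lower, where 60% of all genes were called (30.7% higher, 29.3% lower).

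These shares of all genes are high, so a call alone says little about the set. At an absolute log2 fold change above 1 as well, PE in siNeg cultures left 1 gene, Edn1, where 6.6% of all genes were called. Knockdown left 2, Ednrb and Agtr1a, where 9.78% of all genes were called. Knockdown under PE left 3, Edn1 higher and Ednrb and Ace lower, where 11.6% were called. PE after knockdown left 0 of the 6, where 10.5% were called. The median log2 fold change of the 6 genes was -0.09, -0.61, -0.55 and -0.40 in these comparisons, and that of all genes tested was -0.01, -0.02, 0.01 and 0.01. The comparisons share groups and are not independent of each other. Because a gene was tested only where some group reached enough counts, a gene high in 1 group could pass through that group, and Ednrb in siSlc39a2 was below the level the filter required.

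**Figure D1:**
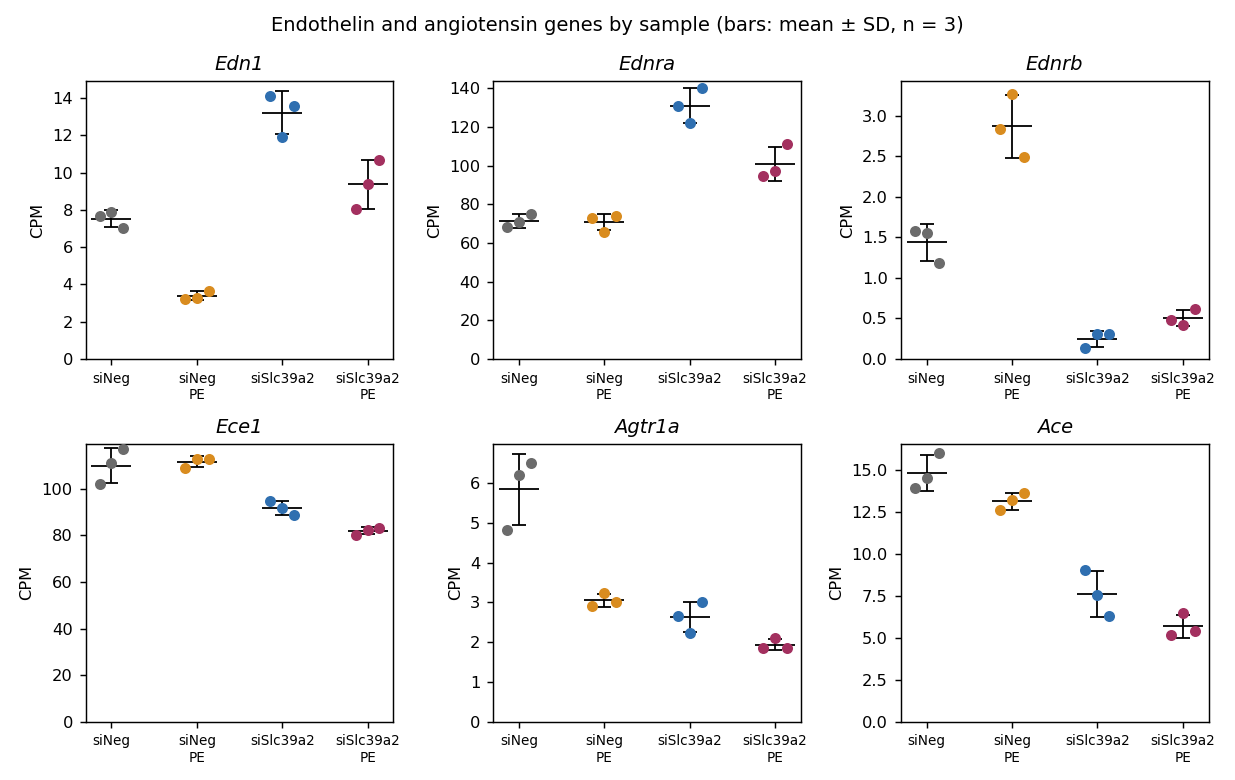
CPM of the 6 genes tested in each of the 12 samples (points), with the mean and SD of the 3 samples of a group (bars) and each vertical axis starting at 0. Edn1 and Ednra stood highest in siSlc39a2 and Ednrb highest in siNeg PE, whereas Agtr1a and Ace stood highest in siNeg.

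Edn1 (NCBI gene 24323), which encodes the endothelin-1 precursor, fell with PE and rose with the knockdown. Its levels were 7.66, 7.88 and 7.01 CPM in siNeg and 3.24, 3.27 and 3.67 in siNeg PE. They were 14.1, 11.9 and 13.6 CPM in siSlc39a2 and 8.06, 9.38 and 10.7 in siSlc39a2 PE. No sample of any group overlapped another group, and the order from high to low was siSlc39a2, siSlc39a2 PE, siNeg and siNeg PE. PE lowered Edn1 in siNeg cultures by 2.21-fold (log2 fold change -1.15, standard error 0.13, adjusted p = 2.63e-05 from edgeR). The knockdown raised it 1.75-fold without PE (0.81, standard error 0.12, adjusted p = 1.26e-04) and 2.76-fold with PE (1.47, standard error 0.13, adjusted p = 1.13e-06). After knockdown, PE lowered it 1.4-fold (-0.49, standard error 0.12, adjusted p = 0.00333). With both the siRNA and PE, Edn1 was above the untreated control in every sample, the lowest of the 3 being 8.06 CPM against a highest siNeg value of 7.88. Edn2, a paralog of Edn1, did not exceed 4 counts and so was left untested.

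Ednra (NCBI gene 24326), the receptor that carries the growth signal of endothelin in cardiomyocytes, rose with the knockdown and showed no detectable response to PE in siNeg cultures. It was at 68.3, 70.7 and 75.1 CPM in siNeg and at 72.7, 65.9 and 73.9 in siNeg PE, and these ranges overlapped. The log2 fold change for PE was -0.01, with a 95% interval from -0.18 to 0.16 and an adjusted p of 0.922. In siSlc39a2 the levels were 131, 122 and 140 CPM, all above every siNeg sample, a rise of 1.84-fold (log2 fold change 0.88, standard error 0.08, adjusted p = 1.61e-06). In siSlc39a2 PE they were 94.4, 97 and 111 CPM, between siSlc39a2 and the siNeg groups and overlapping neither. The rise over siNeg PE was 1.42-fold (0.51, standard error 0.08, adjusted p = 1.49e-04), and PE lowered Ednra in knockdown cultures by 1.3-fold (-0.38, standard error 0.08, adjusted p = 0.00128).

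Ednrb (NCBI gene 50672), the other endothelin receptor, moved opposite to Ednra in each comparison that called both. Its siNeg samples held 40, 41 and 30 counts (1.58, 1.55 and 1.18 CPM) and its siNeg PE samples 77, 93 and 68 (2.84, 3.27 and 2.49 CPM). In siSlc39a2 there were 4, 9 and 8 counts (0.138, 0.305 and 0.312 CPM), and in siSlc39a2 PE 13, 12 and 17 (0.485, 0.414 and 0.618 CPM). In CPM the 4 groups did not overlap, in the order siNeg PE, siNeg, siSlc39a2 PE and siSlc39a2 from high to low. In FPKM the ranges of siSlc39a2 (0.04 to 0.13) and siSlc39a2 PE (0.1 to 0.15) overlapped. The knockdown lowered Ednrb by 5.67-fold without PE (log2 fold change -2.50, standard error 0.32, adjusted p = 2.17e-05) and by 5.64-fold with PE (-2.50, standard error 0.27, adjusted p = 5.62e-06). PE raised it 1.99-fold in siNeg cultures (0.99, standard error 0.23, adjusted p = 0.00402). In knockdown cultures the rise was 2-fold (1.00, standard error 0.35, adjusted p = 0.0213), and with so few counts its 95% interval ran from 0.25 to 1.75 on the log2 scale.

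The PE effect on Ednrb after knockdown depended on single samples. Without siSlc39a2 replicate 1, the sample with 4 counts, the PE effect after knockdown was 0.70 (adjusted p = 0.123), and without siSlc39a2 PE replicate 3 it was 0.83 (adjusted p = 0.0855). Endothelial cells are a known site of Ednrb, and the mean sum of endothelial markers was 20.1 CPM in siNeg and 18.3 in siSlc39a2 without PE, against 22.9 and 20.5 with PE. The knockdown lowered 2 of the 7 endothelial markers tested without PE and called 0 of 7 with PE, where the median log2 fold changes of the list were -0.33 and -0.28. PE raised 1 and lowered 1 of the 7 in siNeg cultures, where the list's median was 0.06. In knockdown cultures PE raised 2 and lowered 0, and the list's median was -0.31. The other 5 were not called there, and among them Pecam1, Cdh5, Tie1 and Vwf had at most 38 counts in a sample. The part of endothelial cells in the changes of Ednrb was not tested.

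**Figure D2:**
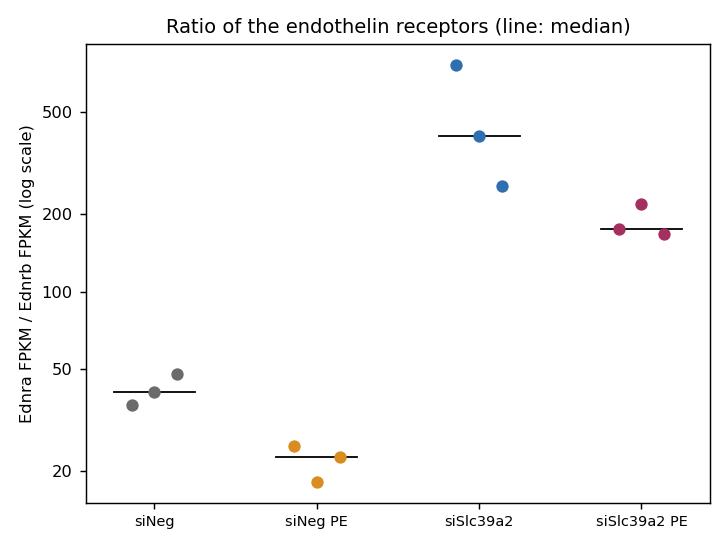
Ratio of Ednra FPKM to Ednrb FPKM in each sample (points, log scale), with the median of each group (line). The siSlc39a2 samples lie between 258 and 762 and the siNeg PE samples between 18.2 and 25.2, with the 4 groups apart from each other.

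The ratio of the receptors differed between the groups without overlap. Per transcript length, Ednra exceeded Ednrb by a ratio of 36.2 to 47.8 in siNeg and of 18.2 to 25.2 in siNeg PE. After knockdown the ratio was 258 to 762 in siSlc39a2 and 167 to 220 in siSlc39a2 PE. The plot of the receptor ratio shows 4 separate ranges, lowest with PE alone and highest with the knockdown alone. The ratios in siSlc39a2 rest on 4 to 9 Ednrb counts a sample, and their spread is wide. FPKM did not follow the counts closely there, at 0.07 with 9 counts in replicate 2 and 0.13 with 8 counts in replicate 3.

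Ece1 (NCBI gene 94204), the enzyme that releases active endothelin, was among the more abundant of these transcripts and changed the least. It was at 102, 111 and 117 CPM in siNeg and at 109, 113 and 113 in siNeg PE, with overlapping ranges and a log2 fold change of 0.02 (95% interval -0.11 to 0.15, adjusted p = 0.753). The levels were 94.7, 91.8 and 88.9 CPM in siSlc39a2 and 80.3, 82.5 and 83.2 in siSlc39a2 PE, all below every sample of the siNeg groups. The knockdown lowered Ece1 by 1.19-fold without PE (-0.26, standard error 0.06, adjusted p = 0.00352) and by 1.36-fold with PE (-0.44, standard error 0.06, adjusted p = 5.41e-05). The 1.12-fold decrease with PE after knockdown was near the threshold (-0.16, standard error 0.06, adjusted p = 0.0329), and it was lost (adjusted p from 0.0543 to 0.108) when any 1 of 5 of the 6 samples was left out. The exception was siSlc39a2 replicate 3, without which the adjusted p was 0.0273.

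Agtr1a (NCBI gene 24180), the receptor for angiotensin II, fell with PE and with the knockdown. It was at 4.82, 6.21 and 6.5 CPM in siNeg, and at 2.91, 3.24 and 3.01 in siNeg PE. In siSlc39a2 it was at 2.66, 2.24 and 3 CPM, a range that overlapped siNeg PE, and in siSlc39a2 PE it was lowest, at 1.86, 2.1 and 1.85. PE lowered it 1.91-fold in siNeg cultures (log2 fold change -0.94, standard error 0.16, adjusted p = 5.15e-04). The knockdown lowered it 2.22-fold without PE (-1.15, standard error 0.16, adjusted p = 7.57e-05) and 1.57-fold with PE (-0.65, standard error 0.17, adjusted p = 0.00529). The further 1.35-fold decrease with PE after knockdown (-0.44, standard error 0.17, adjusted p = 0.0414) was lost when any 1 of 5 of the 6 samples was left out (adjusted p from 0.0517 to 0.133), all but siSlc39a2 replicate 2. Agtr1b, the near-identical paralog of Agtr1a, was not analysed here, so how reads common to both were assigned is not known. The counts of Agtr1a were whole in every sample.

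Ace (NCBI gene 24310), which makes angiotensin II and breaks down bradykinin, fell with the knockdown. It was at 13.9, 14.5 and 16 CPM in siNeg and at 12.6, 13.2 and 13.6 in siNeg PE. The siNeg PE samples lay below the siNeg samples without overlap, but the log2 fold change of -0.17 (95% interval -0.45 to 0.10) did not pass, with an adjusted p of 0.265. Under limma on log2(FPKM + 1) it did pass, at -0.27 with an adjusted p of 0.0308. After knockdown the levels were 9.02, 7.52 and 6.28 CPM in siSlc39a2 and 5.18, 6.45 and 5.38 in siSlc39a2 PE, below every siNeg and siNeg PE sample and overlapping each other. The knockdown lowered Ace by 1.94-fold without PE (-0.96, standard error 0.13, adjusted p = 5.82e-05) and by 2.31-fold with PE (-1.21, standard error 0.13, adjusted p = 8.81e-06). PE after knockdown lowered it 1.34-fold (-0.42, standard error 0.13, adjusted p = 0.0159), a call lost without siSlc39a2 replicate 1 (-0.28, adjusted p = 0.0918).

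The decreases of Agtr1a and Ace with the knockdown ran beside lower levels of most fibroblast markers. The knockdown lowered 6 and raised 1 of the 8 fibroblast markers without PE, with a median log2 fold change of -1.02, and did the same with PE, with a median of -0.97. PE in siNeg cultures, where Agtr1a but not Ace was called, lowered 4 and raised 2 of the 8, with a median of -0.24. After knockdown, where both genes were called lower, PE lowered 4 and raised 3, with a median of -0.13. Summed macrophage markers (5 of 6 with a row) were at 19.8 ± 2.45 CPM in siNeg and 12.1 ± 0.912 in siSlc39a2 without PE, and at 11.9 ± 0.774 and 7.98 ± 0.172 with PE (SD, n = 3). Summed smooth muscle and pericyte markers were at 840 ± 48 CPM in siNeg and 508 ± 39.9 in siSlc39a2, and at 859 ± 51.3 in siNeg PE and 805 ± 10.7 in siSlc39a2 PE. The sum covers genes that moved apart: of the 7 markers, PE raised 1 and lowered 2 in siNeg cultures and raised 4 and lowered 2 after knockdown, and the knockdown lowered 6 without PE and raised 2 and lowered 2 with PE. With PE in siNeg cultures, Cnn1 rose by 2.57 and Pdgfrb fell by 0.51 on the log2 scale, both chosen after their values were seen. Pdgfrb, like Agtr1a, was called lower in each of the 4 pairwise comparisons. The same held for Abcc9 of that list and for the fibroblast markers Col1a1, Col1a2 and Col3a1. It also held for the macrophage markers Cd68 and Csf1r and the cardiomyocyte markers Myh6 and Tnni3. These markers were picked after their values were seen, and the other markers of their lists were not called lower in all 4 comparisons. The part of these cells in the changes of Agtr1a and Ace was not tested.

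**Figure D3:**
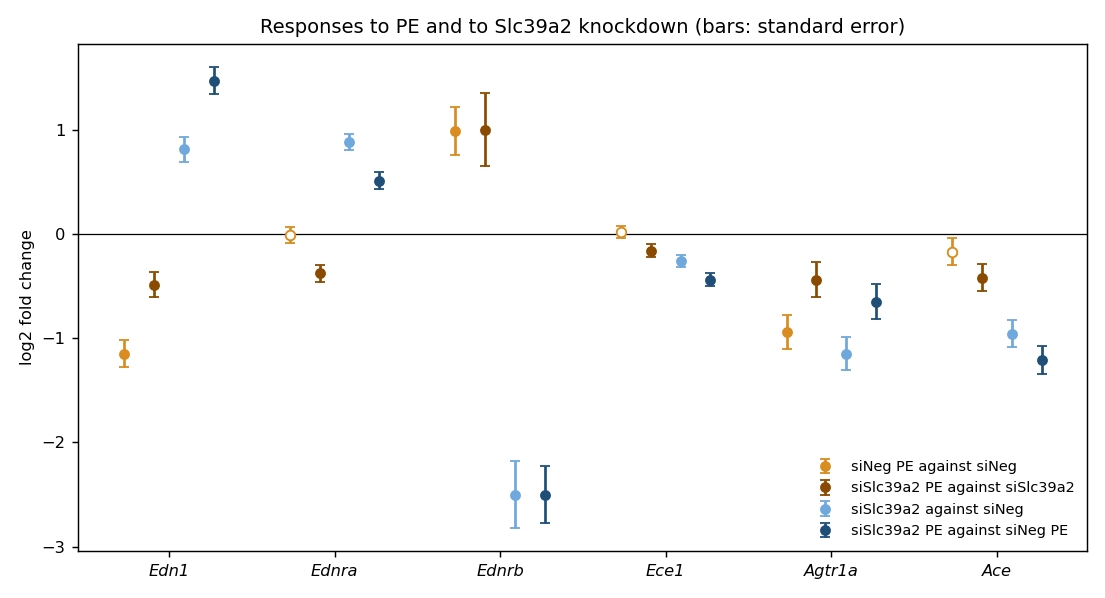
Log2 fold changes (points) with their standard errors (bars) for the 6 genes in the 4 pairwise comparisons, with open points for changes that did not pass the test. Ednrb lies near -2.50 in both knockdown comparisons, while Edn1 and Ednra lie above 0 in both.

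The substrate of the angiotensin system and its second receptor were hardly detected in these cultures. Agt (NCBI gene 24179) had at most 4 counts in a sample, in siNeg PE replicate 3, and at most 1.14 in each of the others. Agtr2 (NCBI gene 24182) had 1 count in each of siSlc39a2 PE replicates 1 and 2 and 0 in the other samples. Mas1, a receptor for a shorter angiotensin peptide, had at most 1 count. A level of 3 counts a sample was between 0.107 and 0.117 CPM on group average, and changes below it could not be seen at this depth. Counting error alone is covered by this limit.

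The difference between the knockdown effects with and without PE passed the test for 0 of the 6 genes in edgeR, where 3.61% of all genes were called. For Edn1 the knockdown effect was larger with PE by 0.66 on the log2 scale (95% interval 0.28 to 1.04, unadjusted p = 0.00244 and adjusted p = 0.0592 from edgeR). For Ednra it was smaller with PE, by a difference of -0.37 (95% interval -0.61 to -0.13, unadjusted p = 0.00603 and adjusted p = 0.101). Of the 6 genes, Ece1 also had an unadjusted p under 0.05 (a difference of -0.19, unadjusted p = 0.0471). The same difference was 0.01 for Ednrb (95% interval -0.90 to 0.91), a range too wide to separate equal from unequal effects. Edn1 and Ednra passed in DESeq2 (0.64, adjusted p = 0.042, and -0.39, adjusted p = 0.0284) and with the replicate number as a block in edgeR (0.66, adjusted p = 0.0393, and -0.37, adjusted p = 0.0135). Each also passed with 1 sample left out, Edn1 without siSlc39a2 PE replicate 1 (adjusted p = 0.0343) and Ednra without siSlc39a2 PE replicate 3 (adjusted p = 0.0415), so these calls turned on the fit. For Agtr1a and Ace the differences were 0.50 (adjusted p = 0.316) and -0.25 (adjusted p = 0.571).

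The count for PE after knockdown was the least stable of the pairwise comparisons. It fell from 6 genes to 2 when siSlc39a2 and siSlc39a2 PE were fitted alone, to 2 without siSlc39a2 replicate 1 and to 3 without siSlc39a2 PE replicate 3. Edn1 and Ednra passed in each of these fits. Both knockdown comparisons called 6 of 6 genes in every setting and with any 1 sample left out.

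**Figure D4:**
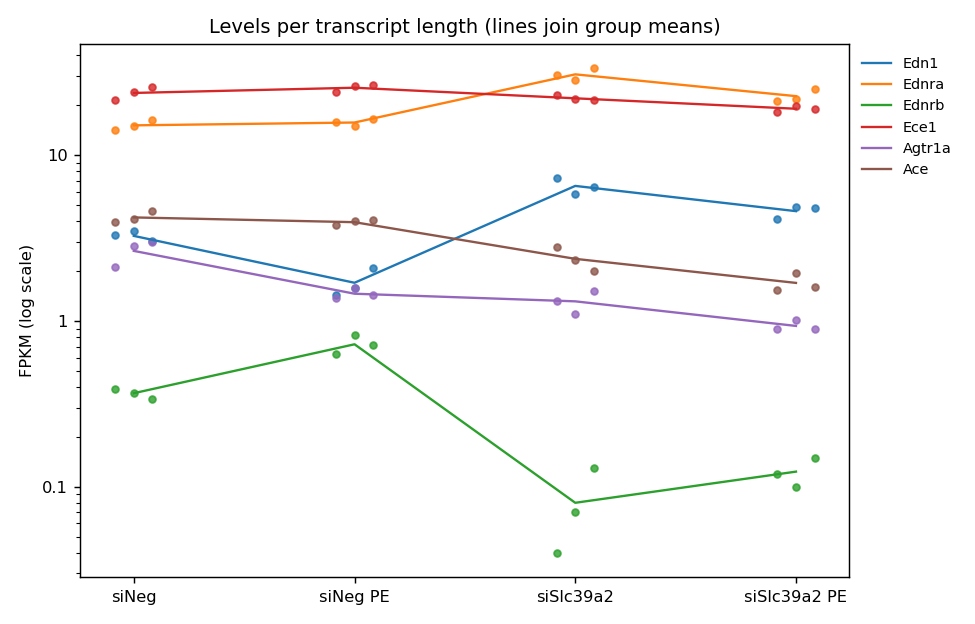
FPKM of the 6 genes in each sample (points, log scale), with lines joining group means. Ece1 was highest in the siNeg groups and Ednra in the siSlc39a2 groups, and Ednrb was lowest throughout.

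Scaled to transcript length, the order of the genes changed with the knockdown. In siNeg, Ece1 was at 23.7 ± 2.25 FPKM (SD, n = 3), followed by Ednra at 15.1 ± 1.08, Ace at 4.21 ± 0.33, Edn1 at 3.26 ± 0.221, Agtr1a at 2.65 ± 0.463 and Ednrb at 0.367 ± 0.0252. The order was the same in siNeg PE, where Edn1 (1.7 ± 0.353 FPKM) and Agtr1a (1.46 ± 0.101) overlapped and so could not be ranked. In siSlc39a2, Ednra (30.7 ± 2.61 FPKM) stood above Ece1 (22 ± 0.775), and Edn1 (6.53 ± 0.737) above Ace (2.37 ± 0.407). The order in siSlc39a2 PE was that of siSlc39a2, and no neighbours in it overlapped. The ratio of Ace to Edn1 in FPKM thus lay between 1.19 and 1.51 in siNeg and between 1.93 and 2.64 in siNeg PE, but between 0.308 and 0.399 in siSlc39a2 and between 0.333 and 0.399 in siSlc39a2 PE. The siNeg level of Ece1 was above that of 80.9% of all genes in the table, that of Edn1 above 51.8% and that of Ednrb above 31.9%.

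Of 21 other genes of these systems, 17 had a row and 12 were tested. PE in siNeg cultures raised 3 and lowered 5 of the 12, where 49.7% of all genes were called, and the knockdown raised 3 and lowered 4, where 49.2% were. Knockdown under PE raised 5 and lowered 5 (57.3% of all genes). PE after knockdown raised 2 and lowered 3, a smaller share than the 60% of all genes. With groups near 0 set at 3 counts a library, the medians of the log2 fold changes were -0.35 (11 genes, since Bdkrb1 was under 3 counts in both groups), -0.07, 0.27 and 0.12. They were -0.22, -0.07, 0.27 and 0.12 as fitted over the 12.

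The bradykinin receptors, whose ligand Ace degrades, had the largest rises of this list. Bdkrb2, the constitutive bradykinin receptor of many tissues, rose with PE from 0, 2 and 3 counts in the siNeg samples to 22, 32 and 62, at least 12-fold higher. In siSlc39a2 it had 15, 11 and 14 counts, at least 4.1-fold above siNeg, and in siSlc39a2 PE 293, 361 and 266. The 3-count level per library stood in for the group near 0, so these folds leave out the spread between samples and are not lower limits. The log2 fold change was 2.97 for the knockdown under PE (standard error 0.31, adjusted p = 6.53e-06) and 4.52 for PE after knockdown (standard error 0.38, adjusted p = 7.60e-07). Bdkrb1, the inducible receptor, had at most 2 counts in siNeg and siNeg PE samples, with 7 to 13 in siSlc39a2 (at least 3.03-fold higher) and 13 to 20 in siSlc39a2 PE (at least 5.11-fold higher).

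The peptidases Anpep and Ece2 and the steroid enzyme Hsd11b2 fell with the knockdown. Aminopeptidase N (Anpep), which trims angiotensin peptides, had 51.9 ± 2.16 CPM in siNeg against 18.2 ± 1.8 in siSlc39a2 (SD, n = 3), and under PE 50.7 ± 2.83 in siNeg PE against 18.5 ± 2.28 in siSlc39a2 PE. These were log2 fold changes of -1.51 and -1.45 (adjusted p = 7.02e-08 and 1.04e-07 from edgeR), and the PE effects of -0.03 and 0.02 did not pass (adjusted p = 0.793 and 0.847). Ece2, the paralog of Ece1, fell by 1.32 on the log2 scale without PE and by 1.33 with PE, from a level of 1.89 ± 0.216 CPM in siNeg. The adjusted p were 0.00374 and 0.00532 from edgeR. Its counts were 43 to 56 a sample in siNeg and 7 to 20 in siSlc39a2 PE. Hsd11b2, the enzyme that inactivates glucocorticoids before they reach the mineralocorticoid receptor, fell by 1.25 with PE, by 1.44 with the knockdown and by 1.12 with the knockdown under PE. With PE after knockdown Hsd11b2 fell by 0.93 (adjusted p = 0.00269 from edgeR). There were 68 to 70 counts of it a sample in siNeg and 12 to 16 in siSlc39a2 PE. Mme (neprilysin), which breaks down natriuretic peptides and bradykinin, was higher by 1.15 with the knockdown under PE (adjusted p = 0.00149). Mme was lower with PE in siNeg cultures (-0.97, adjusted p = 0.00663 from edgeR) and not called for the knockdown without PE (-0.14, adjusted p = 0.646). Its mean level was 1.95 CPM in siNeg, 0.992 in siNeg PE and 2.21 in siSlc39a2 PE. For the mineralocorticoid receptor Nr3c2, singled out after its values were seen, the knockdown effect was larger with PE by 0.57 (adjusted p = 0.0475). That was the 1 call among the 12 genes, and the count was 0 without siNeg replicate 2 or 3, without siSlc39a2 PE replicate 2, or without any sample of siNeg PE or siSlc39a2.

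**Figure D5:**
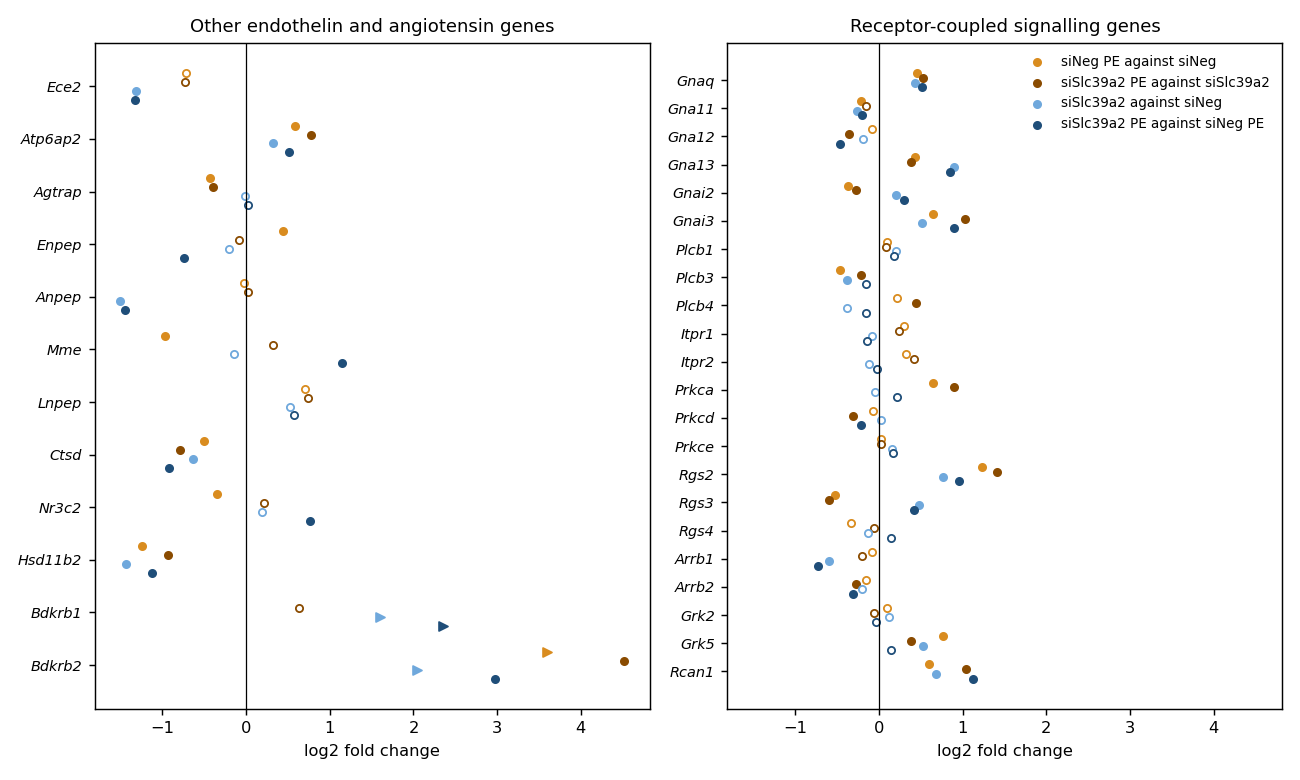
Log2 fold changes of the other genes tested, for the 2 systems (left) and for signalling downstream of their receptors (right). Open points are changes that did not pass, and triangles are changes set against 3 counts a library for genes near 0 counts. Bdkrb2 lies furthest to the right, and Bdkrb1 has no point for PE in siNeg, where both groups were at 3 counts or fewer.

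All 22 listed signalling genes downstream of these receptors were tested. PE in siNeg cultures raised 7 and lowered 4 (49.7% of all genes called), and the knockdown raised 8 and lowered 3 (49.2% of all genes). Knockdown under PE raised 7 and lowered 5 (57.3% of all genes), and PE after knockdown raised 8 and lowered 6 (60% of all genes). These counts are near the shares over all genes. The medians were 0.10, 0.07, 0.14 and 0.06 on the log2 scale. Rgs2, a GTPase-activating protein that turns off Gq, was at 12.1 ± 1.02 CPM in siNeg and 20.6 ± 1.96 in siSlc39a2 without PE, and at 28.2 ± 3.21 and 54.8 ± 4.93 with PE (SD, n = 3). PE raised it by 1.23 in siNeg cultures and by 1.41 after knockdown on the log2 scale (adjusted p = 4.93e-06 and 4.94e-07 from edgeR). Its counts were not whole in every sample, so its level is less certain.

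Rcan1, an inhibitor of calcineurin that calcineurin signalling itself induces, was at 106 ± 2.32 CPM in siNeg and 169 ± 7.59 in siSlc39a2 without PE, and at 160 ± 7.46 and 348 ± 22.9 with PE (SD, n = 3). The knockdown raised it by 1.12 under PE, and PE raised it by 1.04 after knockdown on the log2 scale (adjusted p = 1.87e-08 and 8.52e-08). Gnai3, an inhibitory G protein subunit, rose by 1.03 with PE after knockdown (adjusted p = 4.36e-04). The knockdown effects with and without PE differed for 2 of the 22 genes, higher with PE for Rcan1 (0.44, adjusted p = 0.0163) and lower with PE for Grk5, a kinase that desensitizes receptors (-0.39, adjusted p = 0.0475), named after its values were seen. With 1 sample left out, between 0 and 2 of the 22 passed, with 0 without siNeg PE replicate 2 or either of siSlc39a2 PE replicates 1 and 2.

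The genes whose levels ran most like each member over the 12 samples were sought among 11748 genes by Pearson correlation of log2 CPM, and the coefficients describe samples that share libraries and groups. For Edn1 they were Slc27a3 (r = 0.965) and Csf1 (0.963), a macrophage growth factor that was on average at 269 CPM in siNeg and 508 in siSlc39a2 without PE, and at 170 and 317 with PE. For Ednra they were Parp11 (0.988) and Fam181b (0.978). For Ednrb they were Atp2a1 (0.985), a sarcoplasmic reticulum calcium pump, and Star (0.983), which carries cholesterol into mitochondria and was at 7.53 and 1.26 CPM without PE, and at 19 and 2.68 with PE, in the same order. For Ece1 they were RGD1307929 (0.992) and Man2a2 (0.986), and for Agtr1a Megf6 (0.981) and Fam171a1 (0.972). For Ace they were Arrb1 (0.990), a beta-arrestin that binds receptors after activation, and Hif1an (0.985). Arrb1 also belongs to the signalling list, where it fell with the knockdown by 0.60 without PE and by 0.73 with PE on the log2 scale. Slc27a3, Parp11, RGD1307929 and Megf6 had counts that were not whole in some samples, so their levels are less certain.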

How the data were processed

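RNA from 12 NRVM cultures in 4 groups was sequenced. The authors deposited expected counts per gene, not normalized, in which reads matching several genes are shared, and FPKM values of the same 18483 genes. The submitters' processing notes name HISAT, Bowtie2 and Rnor_6.0, without their roles, and the counting program is not given in the sources used here. Of the counts, 78.7% were whole, as were those of every member with a row except Agt.

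Samples were grouped by their labels. Counts were rounded to whole numbers, filtered with filterByExpr (13967 genes kept, 4516 left out), normalized by TMM and fitted in 1 model of 4 groups with edgeR 4.0.16 in R 4.3.3 (8 residual degrees of freedom, quasi-likelihood test, Benjamini-Hochberg adjustment). Standard errors are from the fitted weights and the moderated dispersion. The text names the members, other genes of the 2 systems and signalling genes past the test at an absolute log2 fold change above 1, paralogs of members, and the 2 genes most correlated with each member out of those whose mean log2 CPM was above 1 (prior count 2). Members, lists and rules were chosen with earlier results of these data known. FPKM were used for comparing genes, and with limma 3.58.1 after quantile normalization. Results were recomputed with DESeq2 1.42.0, with RLE size factors, without the filter, with the replicate number as a block, with limma on log2(FPKM + 1) and log2(FPKM + 0.1), on each pair of groups alone, and with each sample left out. On simulated data for siNeg PE against siNeg over 13967 genes, edgeR recovered 84 of 100 genes changed by 1 and 100 of 100 changed by 2 on the log2 scale, with 8 false calls. The simulation changed 200 genes, equally up and down and none with few counts. Its figures therefore do not carry over to genes with few counts, or to a comparison with 49.7% of genes called.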

Additional observations from a re-analysis of the deposited data

Results flagged for a closer look

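The effect of the knockdown on Rcan1 differed between cultures with and without PE, by the interaction term of the edgeR fit. It was 0.68 on the log2 scale without PE and 1.12 with PE, a difference of 0.44 (standard error 0.09, adjusted p = 0.0163). The difference passed in all 6 other settings (adjusted p from 4.77e-04 to 0.0411). It did not pass without siNeg PE replicate 2 (0.43, adjusted p = 0.0564), siSlc39a2 PE replicate 1 (0.36, adjusted p = 0.0645) or siSlc39a2 PE replicate 2 (0.43, adjusted p = 0.0525).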

How the results depend on the processing

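Members past the test numbered 3 to 4 for PE in siNeg cultures over the 7 other settings. For PE after knockdown the count of 6 went to 2 with the 2 groups alone and to between 2 and 5 with 1 sample left out. For the interaction the count of 0 went to 2 in DESeq2, to 1 in limma on log2(FPKM + 1) and to between 0 and 1 with 1 sample left out, where Edn1 passed without siSlc39a2 PE replicate 1 (0.72, adjusted p = 0.0343) and Ednra without siSlc39a2 PE replicate 3 (-0.44, adjusted p = 0.0415). The 1 gene in limma was Agtr1a (0.46, adjusted p = 0.0213). Over all genes, interaction calls numbered 504 in edgeR, 831 in DESeq2, 805 in limma on log2(FPKM + 1) and 1053 with the replicate block. Other pathway genes called in the interaction numbered 1, and between 0 and 5 in other settings. The causes were not tested.

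Values near 0 changed sign. The PE effect on Ednra was 0.01 without the filter and with the 2 groups alone, 0.00 in both limma fits, and between -0.04 and 0.04 with 1 sample left out. That on Ece1 was between -0.03 and 0.07 with 1 sample left out. The interaction of Ednrb was 0.00 in DESeq2, -0.01 with RLE size factors, -0.03 without the filter, -0.21 and -0.29 in limma with pseudocounts of 1 and 0.1, and between -0.29 and 0.18 with 1 sample left out.

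With the replicate block, 2 members passed the interaction, Edn1 (0.66, adjusted p = 0.0393) and Ednra (-0.37, adjusted p = 0.0135), and no other call of a member changed. Deviations of same-numbered samples correlated by between -0.0904 and 0.32 over genes, not all above 0.1 in any comparison. For siNeg PE against siNeg they were 0.315, 0.0535 and 0.206, and between -0.249 and 0.0892 for unlike numbers. For siSlc39a2 PE against siNeg PE they were 0.32, 0.00387 and 0.122, and between -0.226 and 0.118 for unlike numbers. In the other comparisons they lay within or near the range of unlike numbers. Whether same-numbered samples shared a culture or batch was not tested. Among called changes, that of Bdkrb2 with the knockdown was lost in limma on log2(FPKM + 1) (0.14, adjusted p = 0.256). For PE after knockdown, limma on log2(FPKM + 1) lost Ednrb (0.07, adjusted p = 0.293) and Ece1 (-0.13, adjusted p = 0.136), limma on log2(FPKM + 0.1) lost Ece1 (-0.13, adjusted p = 0.155), and DESeq2 lost Agtr1a (-0.45, adjusted p = 0.0591). The 2 groups alone lost Ednrb (adjusted p = 0.0575), Ece1 (0.0521), Agtr1a (0.0752) and Ace (0.0537).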
